A study of Saccharomyces cerevisiae with 12 samples.

Results

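The mitochondrial genome was measured with 295 of the 41775 probes of a yeast tiling array that were not control spots. They were chosen by their position, as all probes that the array design places on chrM, and no measured value entered the choice. The other 41480 probes lay on the nuclear chromosomes. The mitochondrial probes began at position 49 and ended at position 85778 of chrM (build sacCer1), with a median length of 60 nt, a median distance of 273 bp between neighboring starts and no overlap between neighbors.

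The study used chromatin immunoprecipitation (ChIP) on arrays to map acetylated histone H4 (AcH4) in mutants of Rco1, a subunit of the Rpd3S histone deacetylase complex, and of Rsc1 and Rsc2, bromodomain proteins of the RSC chromatin remodeling complex. DNA immunoprecipitated with an antibody against AcH4 (IP, Cy5 dye) and input DNA of the same culture (Cy3 dye) were amplified by double T7 linear amplification and hybridized together. There were 3 arrays for each of 4 strains, each array a biological repeat. All strains were budding yeast grown in YPD, a rich glucose medium. Wild type was BY4741 (*MATa* with *his3*, *leu2*, *met15* and *ura3* auxotrophic deletions), and *rco1*Δ carried the KANMX6 marker in place of *RCO1* in the same background. The *rsc1*Δ and *rsc2*Δ strains are known here by these names alone. The deleted locus of each mutant was taken from these data. It was the longest run of nuclear probes whose log2 input minus that of the other strains was below -2. The runs held 10 (*rsc1*Δ), 9 (*rsc2*Δ) and 7 (*rco1*Δ) successive probes. They lay on chromosomes 7, 12 and 13, which carry *RSC1*, *RSC2* and *RCO1*. Since low input was the rule of choice, it is no separate test of the strains.

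Yeast mitochondrial DNA is a small, very AT-rich genome present in many copies per cell. It encodes core subunits of the respiratory chain and of ATP synthase together with the ribosomal and transfer RNAs that translate them. It carries no histones and is compacted in nucleoids by the HMG-box protein Abf2, so an antibody against AcH4 has no target there. Yeast can grow on glucose without an intact mitochondrial genome, and cells that have lost part or all of it are known as petites. The gene table used here (assembly R64) lists 19 protein-coding genes, 2 ribosomal RNA genes, 24 tRNA genes and 1 other RNA gene on this genome. Among them are *COX1*, *COX2* and *COX3* of cytochrome c oxidase, *COB* of the bc1 complex, *ATP6*, *ATP8* and *OLI1* of ATP synthase, the ribosomal protein gene *VAR1* and the ribosomal RNA genes 15S_RRNA and 21S_RRNA. Probe positions were those of sacCer1, and none was carried over to R64, so no probe was assigned to a gene, exon or intron.

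The first question was how much mitochondrial DNA the input of each strain held. For each array, the level was the median log2 input signal of the mitochondrial probes minus the median of the nuclear probes. In wild type the 3 levels were 1.50, 1.63 and 1.54. The *rsc1*Δ levels were 1.50, 1.65 and 1.28. For *rsc2*Δ the arrays gave 1.47, 1.87 and 0.95, and those of *rco1*Δ 1.51, 1.33 and 0.92. The mitochondrial signal was thus above the nuclear median on 12 of 12 arrays, between 1.90-fold and 3.65-fold. The 3 wild type arrays lay close together, and those of *rsc2*Δ and *rco1*Δ spread more widely on both sides or below. These folds compare different probes, which can bind DNA with different strength, and are not copy numbers. The same probes are compared between strains.

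The input level did not differ between strains beyond the spread of the repeats. Wild type had a mean of 1.56 ± 0.07 (SD, n = 3), *rsc1*Δ 1.48 ± 0.18, *rsc2*Δ 1.43 ± 0.46 and *rco1*Δ 1.25 ± 0.30. The difference from wild type was -0.08 ± 0.11 (SE) for *rsc1*Δ, -0.13 ± 0.27 for *rsc2*Δ and -0.31 ± 0.18 for *rco1*Δ, and *rsc1*Δ minus *rsc2*Δ was 0.05 ± 0.29. Exact two-sided permutation tests gave p = 0.6, 0.7, 0.2 and 0.9 (adjusted over the 4 comparisons, 0.9, 0.9, 0.8 and 0.9), where 0.1 is the smallest p that 3 arrays against 3 can give. The arrays of the compared strains overlapped in all 4 comparisons. With quantile normalization between arrays, *rco1*Δ minus wild type was -0.90 (exact p = 0.1). An exact test over the 4 strains together gave p = 0.648. With only the 198 mitochondrial probes that were well above background in the input on all 12 arrays, that p was 0.624.

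By the file headers, the arrays were hybridized on 3 slides, and the lowest input levels lay on 1 of them. The headers give 4 slide positions to 2 arrays each, so this grouping into slides is uncertain. The third slide carried *rsc1*Δ replicate 3 (1.28), *rsc2*Δ replicate 3 (0.95) and *rco1*Δ replicate 3 (0.92), the 3 lowest of the 12 levels. These arrays also had the 3 lowest shares of nuclear probes well above background in the input, at 81.1%, 92.7% and 79.0%. No wild type array lay on that slide. On the first slide, *rsc1*Δ, *rsc2*Δ and *rco1*Δ differed from the 2 wild type arrays there by -0.07, -0.10 and -0.24. On the second, with 1 array of each strain, the differences were 0.11, 0.32 and -0.03. With the slide as a block, the differences from wild type were 0.006 for *rsc1*Δ, 0.08 for *rsc2*Δ and -0.15 for *rco1*Δ (exact p = 1, 0.833 and 0.167). In this test strain labels were exchanged only within slides, and 0.167 is the smallest p it can give.

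**Figure D1:**
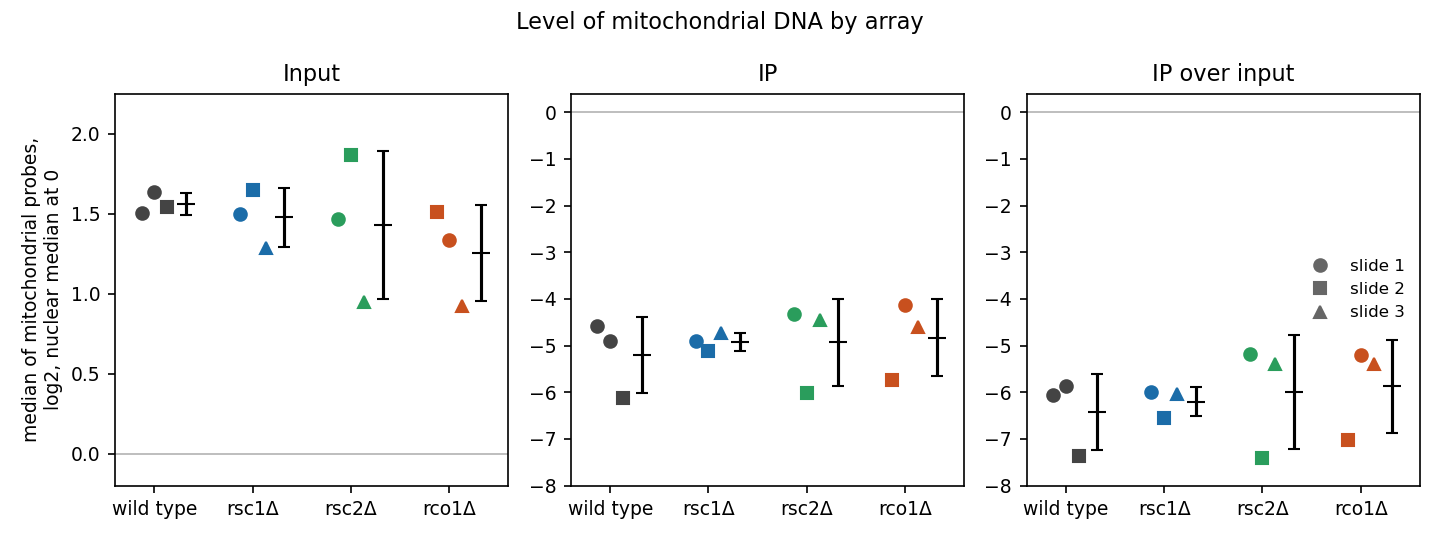
Median log2 signal of the 295 mitochondrial probes on each array in the input (left), the IP (middle) and as IP over input (right), with the nuclear median of the array at 0 (horizontal line). Each point is an array, its shape gives the slide named in the file header, and the black marks are the mean and SD of 3 arrays. All input levels lie above 0 and all IP levels below -4, and the strains overlap in each panel.

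The input signal varied from probe to probe far more than from strain to strain. Within an array, the SD over the mitochondrial probes was between 2.49 and 3.33 on the log2 scale, against 0.963 to 1.76 over the nuclear probes. The mean over 12 arrays ran from -4.86 at the dimmest mitochondrial probe to 6.67 at the brightest. Of the 295 probes, 197 had a mean above the nuclear median and 98 a mean below it. There were 13 probes above 4 and 54 below -3. The share of probes well above background in the input on all arrays was 67.1% for mitochondrial and 68.8% for nuclear probes, and 30 mitochondrial probes reached it on none. Values of those dim probes are set by the scanner software and are not measured levels.

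This pattern recurred on every array. Over the 66 pairs of arrays, the correlation between mitochondrial input profiles had a median of 0.951 (295 probes), with a range from 0.869 to 0.994. It was 0.953 for the 12 pairs within a strain and 0.950 for the 54 pairs between strains. All arrays share the probes and the amplification protocol, so these values describe the profile and do not test it. Neighboring probes resembled each other little: the correlation between a mitochondrial probe and the next one was between 0.0158 and 0.102 on the 12 arrays, and between 0.0759 and 0.284 for nuclear neighbors at no greater distance. At a bright mitochondrial probe the median SD between repeats was 0.448, and at the other mitochondrial probes it was 1.00.

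The brightest probe was chrM:63354-63413. Wild type inputs there were 7.33, 5.94 and 5.84. The *rsc1*Δ arrays gave 5.12, 5.61 and 7.46, the *rsc2*Δ arrays 6.18, 7.04 and 7.13, and the *rco1*Δ arrays 6.54, 7.30 and 8.53. The next brightest were chrM:54592-54651, with a mean of 6.00 and a range from 5.14 to 7.07, and chrM:49-108, with a mean of 5.66 and a range from 4.69 to 7.23. The 3 dimmest probes were chrM:63193-63252 (mean -4.86), chrM:32393-32452 (-4.85) and chrM:25141-25200 (-4.84), none of which was well above background on any array. The brightest and the dimmest probe lay next to each other, 161 bp apart from start to start. The same probes were thus bright or dim in all 4 strains, and their order was not a strain difference.

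**Figure D2:**
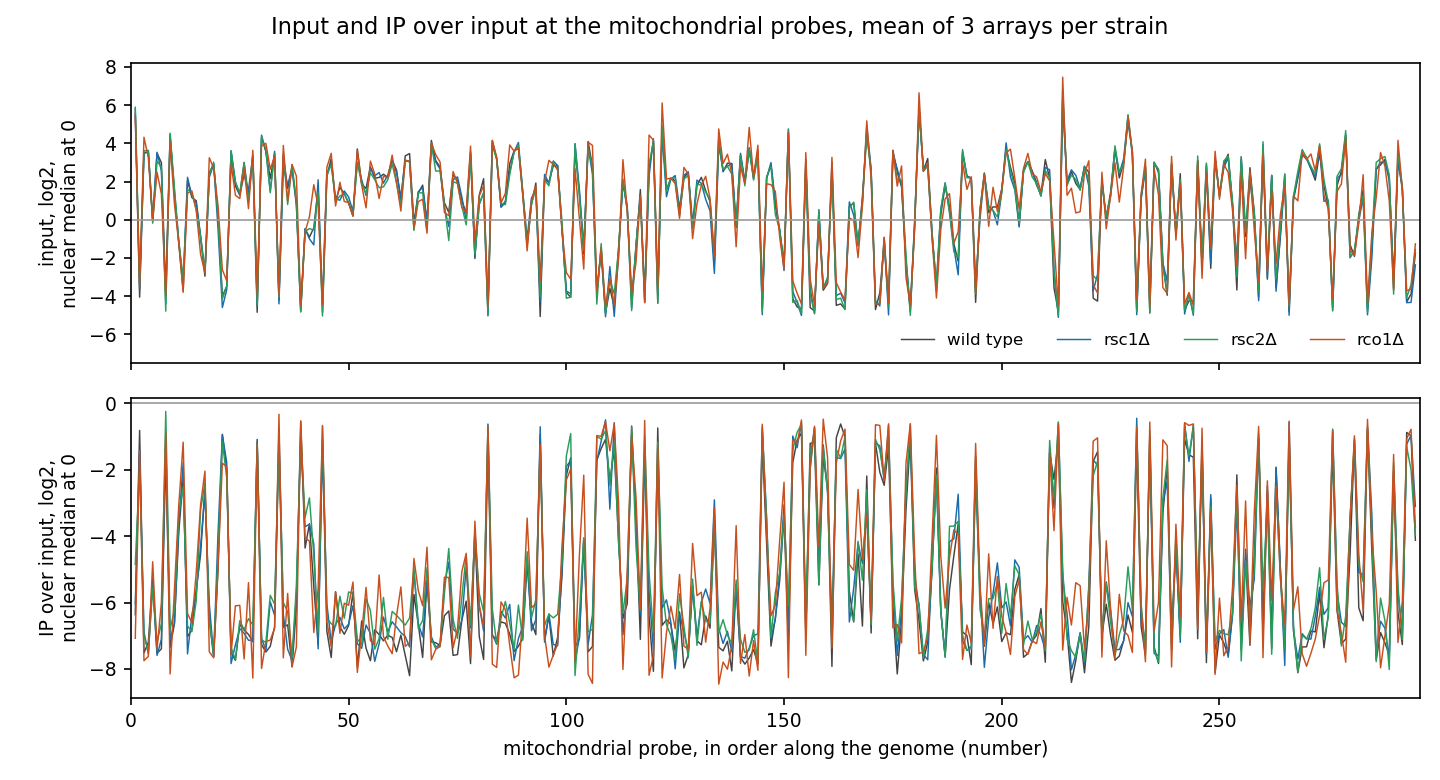
Log2 input (top) and log2 IP over input (bottom) at the 295 mitochondrial probes in order along the genome, with the nuclear median at 0. Each line is the mean of 3 arrays of a strain. The 4 lines follow the same peaks and troughs, from near 7 to near -5 in the input, and IP over input is high where the input is low.

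Medians over bins of 5 kb were less variable than single probes. The highest bin held 16 probes between 40001 and 45000, with an input of 2.38 as the mean of 12 arrays (range 1.85 to 2.83). The lowest held 17 probes between 45001 and 50000, with a mean of -3.25 (range -4.27 to -1.87), and only 4 of these probes were bright on all arrays. 2 other bins had a mean input below the nuclear median: 30001 to 35000 (mean -1.54, 8 of 17 probes bright) and the last one, from 85001 (mean -2.63, 1 of 4 probes bright). The low bins were therefore made up mainly of probes near or below the detection limit. With bright probes alone the highest bin was the one from 5001 and the lowest the one from 85001.

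A deletion or an amplification of part of the mitochondrial genome would shift a stretch of neighboring bins in the input. To compare shapes, the bright probes of each array were centered on their own median and set against the wild type arrays (for a wild type array, the other 2). Over the 16 bins with at least 5 bright probes, no bin of a wild type array departed by more than 0.285. The departures of *rsc1*Δ replicates 1 and 2 and of *rsc2*Δ replicates 1 and 2 stayed between -0.303 and 0.201. In *rsc1*Δ replicate 3 and *rsc2*Δ replicate 3 the bin from 80001 was higher by 0.594 and 0.758, while the other 15 bins lay between -0.366 and 0.388. By the file headers, both arrays came from the same scan and lay on the third slide. The remaining array of that slide, *rco1*Δ replicate 3, was higher by 0.303 at this bin. Replicates 1 and 2 stood there at -0.17 and -0.30 (*rsc1*Δ) and at 0.11 and 0.10 (*rsc2*Δ). Whether the rise goes with the strains or with the scan or slide was not tested. The *rco1*Δ arrays did not share a shape: replicate 1 ran from -0.707 (bin from 70001) to 0.502 (from 25001), replicate 2 from -0.281 to 0.332, and replicate 3 from -0.645 (from 20001) to 0.657 (from 50001). Probes that fell below the background mark on any array were not part of this comparison, so a loss that dimmed a probe that far would not appear in it.

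**Figure D3:**
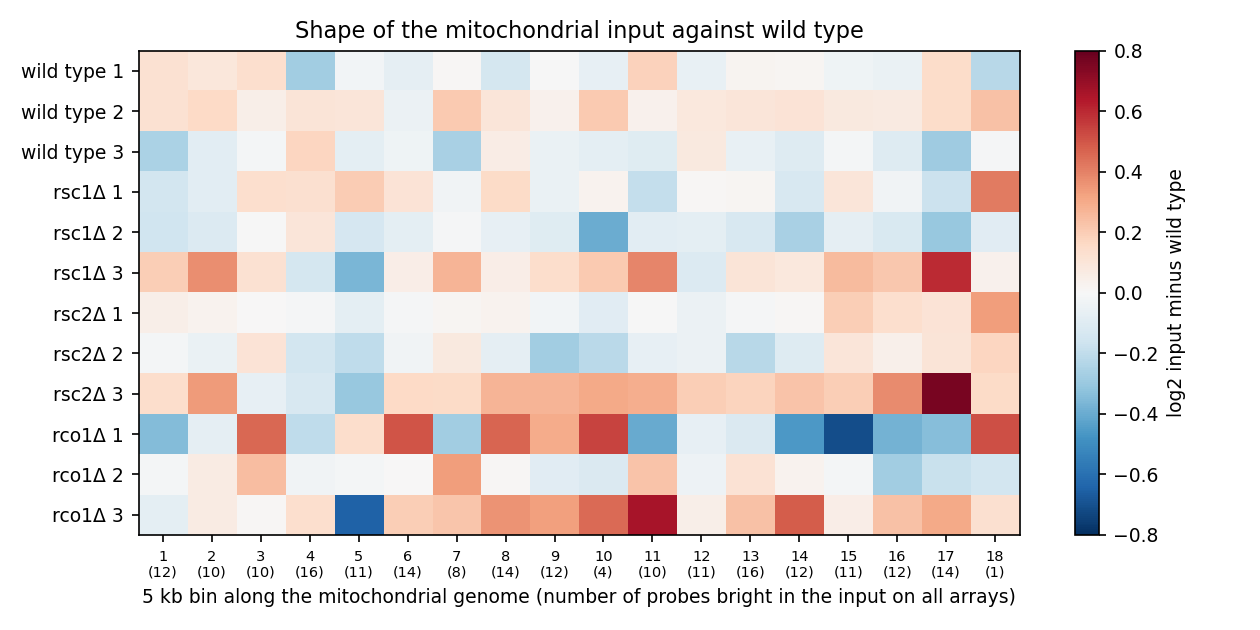
Log2 input of each array (rows) minus wild type in bins of 5 kb along the mitochondrial genome (columns), from probes bright in the input on all arrays, with each array centered on the median of these probes. Red is higher and blue lower than wild type, and the number of probes stands under each bin. The strongest departures are those of *rsc2*Δ replicate 3 in bin 17 (0.758), *rco1*Δ replicate 1 in bin 15 (-0.707) and *rco1*Δ replicate 3 in bin 11 (0.657) and bin 5 (-0.645).

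Single probes were tested with limma over all 41775 probes. In the input, 0 of 295 mitochondrial probes were called (adjusted p under 0.05) in *rsc1*Δ against wild type, 0 in *rsc2*Δ against wild type and 0 in *rsc1*Δ against *rsc2*Δ. Unadjusted p was under 0.05 for 2, 0 and 1 of them. Over all probes, limma called 0% higher and 0.00718% lower in *rsc1*Δ, 0% higher and 0.0192% lower in *rsc2*Δ, and 0.0192% higher and 0.012% lower in *rsc1*Δ against *rsc2*Δ. In *rco1*Δ against wild type, limma called 1 mitochondrial probe higher and 6 lower, or 0.339% and 2.03% of 295. Over all probes the shares called were 5.01% higher and 0.438% lower. All 7 were bright in the input on all 12 arrays, and their *rco1*Δ and wild type arrays did not overlap. Called or not, 8.81% of the mitochondrial probes were higher without overlap in *rco1*Δ and 15.6% lower. Over all probes these shares were 21% and 10.7%.

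The probe called higher was chrM:35063-35122. Its input was 3.47, 2.25 and 2.34 in wild type and 4.83, 4.15 and 4.31 in *rco1*Δ, a difference of 1.74 ± 0.42 (SE, adjusted p = 0.0422 by limma). The largest fall was at chrM:1846-1905, from 3.03, 3.12 and 2.80 to 1.10, 1.92 and 1.01, a difference of -1.64 ± 0.35 (adjusted p = 0.0361 by limma). At chrM:83624-83683 the values went from 2.86, 2.74 and 2.33 to 0.31, 1.80 and 1.34, and at chrM:67302-67361 from 2.24, 2.21 and 2.11 to 0.66, 1.54 and 0.58 (differences of -1.49 and -1.26, adjusted p = 0.0420 and 0.0427 by limma). None of these probes was called in *rsc1*Δ or *rsc2*Δ. At chrM:1846-1905, *rsc1*Δ had 2.67, 2.69 and 2.30, all below the wild type arrays, and *rsc2*Δ 2.91, 3.35 and 2.04, of which the last was close to the highest *rco1*Δ array. At chrM:83624-83683 the arrays of both strains lay between 2.36 and 3.36, and at chrM:35063-35122 between 1.89 and 3.61. The called probes were scattered over the genome and were not neighbors. None was called with the scan as a random block, with the slide as a block, or with the arrays of the compared strains alone. Leaving out any wild type array, or *rco1*Δ replicate 1 or 3, also left 0 calls. Over all probes, both blocks and the compared strains alone left 0 higher and at most 3 lower calls. With an array left out as above, at most 2 were called higher and at most 10 lower. By the file headers, no *rco1*Δ array shared a scan with another strain (scans 5, 6 and 7). Strain and scan thus cannot be told apart in *rco1*Δ against wild type, and the scan block does not separate them.

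The second question was how much signal the IP gave on DNA without histones. The median log2 IP signal of the mitochondrial probes, with the nuclear median at 0, was -4.58, -4.89 and -6.12 on the wild type arrays. For *rsc1*Δ it was -4.90, -5.13 and -4.74, for *rsc2*Δ -4.32, -6.01 and -4.46, and for *rco1*Δ -5.74, -4.13 and -4.61. It was thus between 1.44% and 5.72% of the nuclear median, on arrays where the input stood above it. An array had 6 to 64 of the 295 mitochondrial spots well above background in the IP, against 208 to 262 in the input. On no array did 191 probes reach that mark, or 64.7% of the mitochondrial probes, compared with 0.309% of the nuclear probes. For those probes the IP value is set by the scanner software and is not a measured level. The true signal can be higher, as far as the detection mark. In processed units the mitochondrial IP median of an array was 9.74 to 37.8, and its dimmest spot well above background 22.8 to 174.

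The IP signal was close to that of spots without target. The median background-subtracted IP signal of the mitochondrial probes was between 1.44 and 6.31 scanner units, that of the 684 negative control spots between -0.280 and 1.44, and that of the nuclear probes between 41.9 and 596. The mitochondrial median was above that of the negative controls on 12 of 12 arrays. It was also above the median of the deleted locus, at -9.45 to 1.49, on 9 of 9 mutant arrays. That locus was picked by its low input in these data. In wild type the mitochondrial medians were 3.30, 1.83 and 5.34, and the negative control medians -0.280, 0.306 and 0.0730. The SD over the negative control spots of an array was between 0.769 and 14.9. The excess of the medians thus does not extend to each single spot. Between 24.4% and 66.4% of the mitochondrial spots of an array lay above the 90th percentile of its negative controls.

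**Figure D4:**
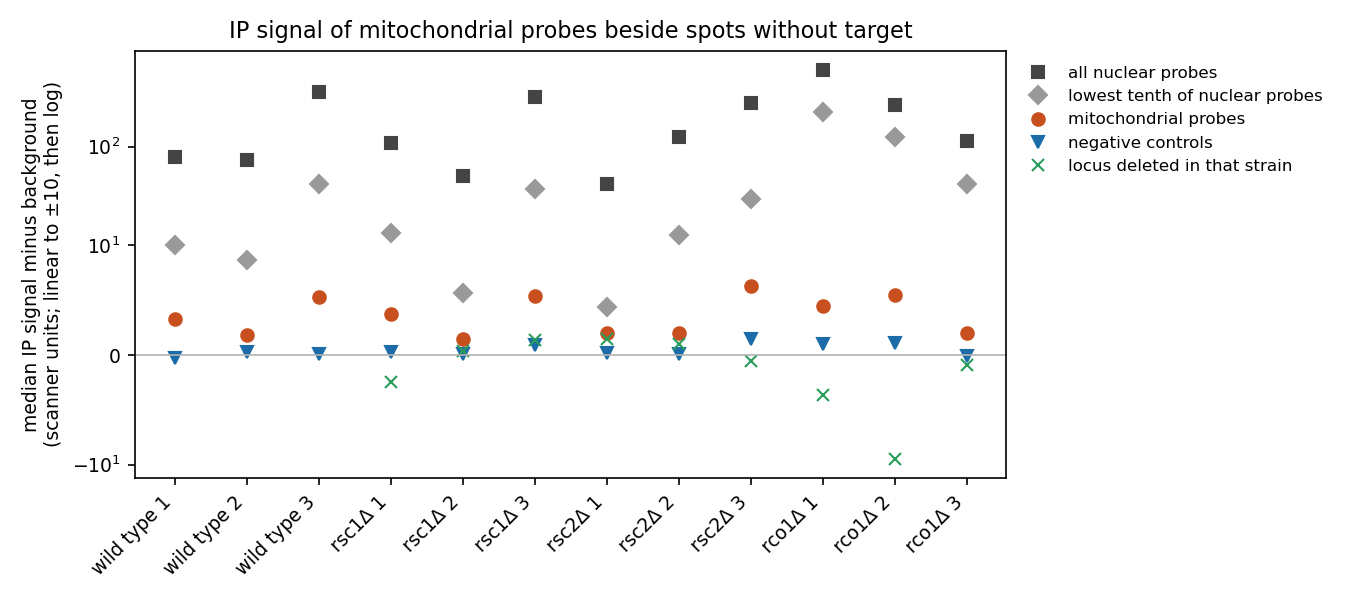
Median background-subtracted IP signal of each array for all nuclear probes, the 10% of nuclear probes with the lowest ratios in wild type, the mitochondrial probes, the negative control spots and, in the mutants, the probes of the deleted locus. The axis is linear between -10 and 10 and logarithmic beyond. The mitochondrial medians (1.44 to 6.31) lie just above the negative controls and below both nuclear groups on each array.

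The processed IP level was lowest on the arrays with the lowest floor. Dim spots are given small positive values by the scanner software, and the median processed IP signal of mitochondrial probes was 1.02 to 1.97 times that of the negative controls. The 4 arrays with the lowest mitochondrial IP levels (wild type replicate 3, *rsc1*Δ replicate 2, *rsc2*Δ replicate 2 and *rco1*Δ replicate 1) were those with the 4 lowest negative control signals, at 6.12, 10.7, 5.12 and 9.70. They were also the 4 arrays of the second slide. For most mitochondrial probes the IP value is not a measured level. Differences between arrays in this level are therefore at least partly differences between values set by the software. The share of the floor in them was not tested.

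The IP level did not differ between strains beyond the spread of the repeats. Wild type had a mean of -5.20 ± 0.81 (SD, n = 3), *rsc1*Δ of -4.92 ± 0.19, *rsc2*Δ of -4.93 ± 0.94 and *rco1*Δ of -4.83 ± 0.83. The differences from wild type were 0.28 ± 0.48, 0.27 ± 0.72 and 0.37 ± 0.67 (SE), and *rsc1*Δ minus *rsc2*Δ was 0.01 ± 0.55. Exact permutation tests gave p = 0.9, 0.5, 0.6 and 1 (all 1 after adjustment), with overlapping arrays in all 4 comparisons, and p = 0.934 over the 4 strains.

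The median IP over input of the mitochondrial probes was below the ratio of nearly all nuclear probes. On the log2 scale, with the nuclear median at 0, it was -6.06, -5.86 and -7.36 on the wild type arrays. The *rsc1*Δ arrays gave -5.99, -6.56 and -6.05, the *rsc2*Δ arrays -5.18, -7.41 and -5.40, and the *rco1*Δ arrays -7.01, -5.20 and -5.39. At most 0.0675% of the nuclear probes of an array had a ratio below this median. Single mitochondrial probes, mainly those with dim input, had higher ratios. Since the IP of most probes was not measured, an upper bound of this median was also computed. With the IP set no lower than the dimmest spot well above background, it lay between -6.61 and -3.30. Where the input was measured, the true ratio can be lower than these values. Differences from wild type were 0.23 ± 0.51 (SE) for *rsc1*Δ, 0.43 ± 0.85 for *rsc2*Δ and 0.56 ± 0.74 for *rco1*Δ, and *rsc1*Δ minus *rsc2*Δ was -0.20 ± 0.73. Exact permutation tests gave p = 0.8, 0.6, 0.5 and 0.9 (all 0.9 after adjustment) and p = 0.868 over the 4 strains. In the table of normalized ratios that was deposited beside the scanner output, *rco1*Δ minus wild type was instead -3.99 without overlap (exact p = 0.1). That table holds a value for 242, 257 and 6 of the 295 probes on the *rco1*Δ arrays. Its scale also differs between arrays. The slope of its values on the log2 ratios of the scanner signals was 0.867, 1.37 and 0.795 in wild type and 1.47, 1.905 and 0.994 in *rco1*Δ. The part of either in the difference was not tested.

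The recovery of mitochondrial DNA in the IP can be given without the floor, from sums of background-subtracted signals. Summed IP over summed input of the bright mitochondrial probes, as a percentage of the same quotient of the nuclear probes, was 0.578%, 0.897% and 0.439% in wild type. The *rsc1*Δ arrays gave 0.868%, 0.596% and 0.483%. Those of *rsc2*Δ gave 1.05%, 0.411% and 0.780%, and those of *rco1*Δ 0.343%, 2.45% and 0.659%. The arrays of all strains overlapped (exact test over the 4 strains, p = 0.950). The high value of *rco1*Δ replicate 2 came from few probes: without the 5 mitochondrial probes that were well above background in the IP on all arrays it was 0.564%, and the other arrays then lay between 0.251% and 0.740%.

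The median mitochondrial ratio stood clear of that of the nuclear probes with the lowest ratios. In the 4148 nuclear probes with the lowest ratios in wild type (the lowest 10%), the median ratio was -2.94 ± 0.16 (SD, n = 3) in wild type, where they were chosen. The mean of this median was -3.07 ± 0.05 for *rsc1*Δ, -3.16 ± 0.11 for *rsc2*Δ and -0.84 ± 0.19 for *rco1*Δ. The mitochondrial median was lower than this on every array. The difference was between -4.30 and -2.01 over the arrays of wild type, *rsc1*Δ and *rsc2*Δ and between -6.30 and -4.33 in *rco1*Δ. The nuclear group was higher in *rco1*Δ on 3 of 3 arrays, and the mitochondrial medians of *rco1*Δ lay within the range of the other strains. The *rco1*Δ arrays shared no scan with another strain, so strain and scan cannot be told apart here.

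Few single mitochondrial ratios were called. In *rsc1*Δ against wild type, *rsc2*Δ against wild type and *rsc1*Δ against *rsc2*Δ, limma called 0 of 295 mitochondrial probes (5, 10 and 1 at an unadjusted p under 0.05). Over all probes it called 0.0383% higher and 0.0575% lower, 0.127% higher and 0.311% lower, and 0.469% higher and 0.426% lower. In *rco1*Δ against wild type it called 13 mitochondrial probes higher (4.41%) and 4 lower (1.36%), while over all probes the shares were 25.8% higher and 27.3% lower. For a probe not well above background in the IP, the test does not compare measured ratios.

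All 13 probes called higher were below the IP detection mark on every *rco1*Δ and wild type array. Their IP values are thus not measured levels in either strain, and 11 of the 13 were bright in the input on all 12 arrays. No fold is given for them. The 3 with the largest rises that did not overlap were chrM:78912-78971, chrM:30493-30552 and chrM:64071-64130. At chrM:30493-30552 the ratio was -6.37, -6.78 and -8.13 in wild type and -3.68, -4.81 and -5.22 in *rco1*Δ (adjusted p = 0.000381 by limma), while the input was 1.50, 1.52 and 1.14 in wild type and -1.57, 0.49 and 1.13 in *rco1*Δ. The mean IP value at this probe, not well above background in either strain, was -5.58 in wild type and -4.45 in *rco1*Δ. The part of the input and of the IP floor in these ratios was not tested. The 4 probes called lower were bright in the input and included chrM:35063-35122, where the input had risen. Only chrM:54592-54651 was well above background in the IP on all 6 arrays. Its ratio went from -6.61, -6.33 and -6.71 in wild type to -7.74, -7.77 and -7.11 in *rco1*Δ, a difference of -0.99 ± 0.38 (adjusted p = 0.0373 by limma). The mean input at this probe was 5.82 in wild type and 6.64 in *rco1*Δ (adjusted p = 0.167 by limma). Its mean IP was -0.60 and -0.80. The part of the input in this fall was not tested.

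Within the mitochondrial genome, the ratio depended on the input of the probe. In the 74 probes with the dimmest input, the median background-subtracted IP signal of an array was between -11.1 and 1.78, and the median ratio between -3.89 and 0.464. In the 74 brightest, the IP signal was between 3.66 and 38.9 and the ratio between -8.35 and -5.91. The IP signal was thus higher at probes with more input, and the ratio was lower. The share of probes well above background in the IP had a median over arrays of 2.70% in the 74 dimmest and 33.1% in the 74 brightest.

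**Figure D5:**
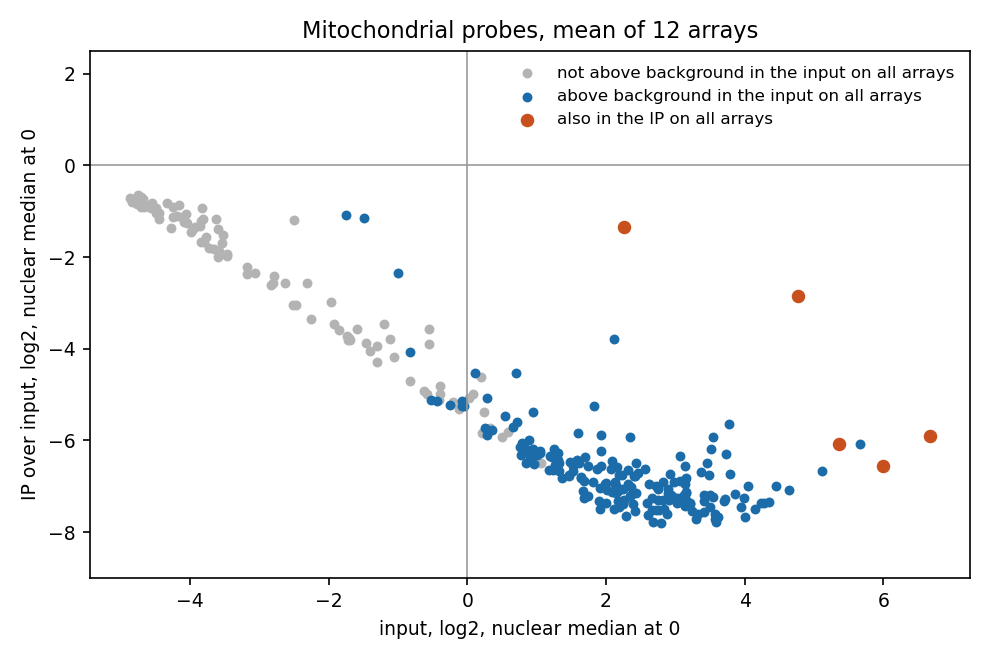
Mean log2 IP over input of each mitochondrial probe (vertical) against its mean log2 input (horizontal) over 12 arrays, with the nuclear median at 0 on both axes. Blue probes passed the background test in the input on all arrays, orange probes also in the IP, and gray probes failed it in the input on some array. The ratio contains the input, so probes with the IP at a floor fall on a line that slopes down. A few blue and orange probes lie well above it, led by chrM:82284-82343 (-1.09), chrM:32189-32248 (-1.14) and chrM:62485-62544 (-1.35).

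Among the mitochondrial probes bright in the input, a few had ratios far above the others. Of the 198 probes bright in the input, 167 had a mean ratio below -6, the median was -6.84, and 6 were above -4. The highest of these were chrM:82284-82343 and chrM:32189-32248, with mean ratios of -1.09 and -1.14. Their mean inputs, at -1.75 and -1.49, were below the nuclear median. Their ratios differed from each other by only 0.0203 to 0.462 on the same array, although they lie far apart on the genome, and both were well above background in the IP on 10 arrays. At chrM:62485-62544, which was well above background in the IP on all 12 arrays, the wild type ratios were -1.58, -0.99 and -1.88. The *rsc1*Δ ratios were -1.33, -0.32 and -2.32, the *rsc2*Δ ratios -0.47, -1.67 and -1.21, and the *rco1*Δ ratios -1.38, -1.76 and -1.30. The strains overlapped at this probe.

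The other 4 probes detected in the IP on all arrays were among those with the most input. At chrM:51057-51115 the mean ratio was -2.85, with a range from -5.91 (*rco1*Δ replicate 1) to -1.19 (wild type replicate 2). At chrM:63354-63413, chrM:67927-67976 and chrM:54592-54651 the means were -5.91, -6.07 and -6.56. At chrM:67927-67976 the arrays ran from -7.68 to -2.60. The spread between repeats at these probes was wide: in *rsc2*Δ the ratio of chrM:67927-67976 was -2.60, -6.54 and -5.63. Probe sequences were not used here, so whether these probes share sequence with nuclear DNA was not tested.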

How the data were processed

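AcH4 IP (Cy5) and input (Cy3) DNA of 12 cultures, 3 for each of 4 strains, were measured on 2-color arrays. The spot signals that the authors deposited are intensity values on a linear scale, with background removed and a linear dye normalization applied in Agilent Feature Extraction 10.5.1.1. The deposited value table holds normalized log2 ratios and served as an alternative. From the processed signals, log2 input, IP and IP over input were centered on the nuclear median of each array, with no pseudocount, and outlier spots were left out. No spot was saturated. Levels were compared by exact permutation tests over arrays (two-sided), and single probes by limma 3.58.1 (R 4.3.3) over all 41775 probes, all 12 arrays in the fit, with Benjamini-Hochberg adjustment. The script was tested on simulated data. Bins were 5 kb. Probes described singly were the 3 brightest and the 3 dimmest, the 3 largest called rises and falls without overlap, and those detected in the IP on all arrays; chrM:82284-82343 and chrM:32189-32248 were added after their values were seen. Scan and slide came from the file headers, and no *rco1*Δ array shared a scan with another strain. Members, lists and tests were chosen with earlier results of these data known. Over all probes, repeats with the same number deviated together only in *rsc1*Δ and *rsc2*Δ (correlations of 0.362, 0.411 and 0.506), which were scanned together. Over the mitochondrial probes, the correlations with *rco1*Δ were 0.12, -0.25 and 0.53 for *rsc1*Δ and 0.40, -0.08 and 0.38 for *rsc2*Δ. Those with wild type ran from -0.62 to 0.010. The pairing changed no mitochondrial call between *rsc1*Δ and *rsc2*Δ. Alternatives were other background steps, centerings, filters, blocks and fits, and each array left out. Figures were drawn with matplotlib 3.10.9.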

Additional observations from a re-analysis of the deposited data

How the results depend on the processing

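No difference in level passed the threshold under any alternative, which 3 arrays a strain could not do in any case, and small differences changed sign easily. Input, *rsc1*Δ minus wild type: 0.0097 from the linear mean of background-subtracted signals, 0.0060 with the slide as a block and 0.014 on slides 1 and 2 alone. Input, *rsc2*Δ minus wild type: 0.0085, 0.082 and 0.11 with the same choices. Input, *rco1*Δ minus wild type: 0.36 with plain subtraction and 0.035 from the mean over probes, but -0.90 with quantile normalization and -0.44 with centering on the nuclear mean (exact p = 0.1 for both), and -0.48 with normexp. Input, *rsc1*Δ minus *rsc2*Δ: -0.010 from the mean over probes and -0.094 on slides 1 and 2. The linear mean, the slide settings and centering on the mitochondrial median were chosen after seeing the data.

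For the IP, plain subtraction gave -0.40 in *rsc1*Δ and -0.20 in *rsc2*Δ against wild type, and bright probes alone -0.11 in *rco1*Δ. *rsc1*Δ minus *rsc2*Δ was -0.20 with plain subtraction, -0.011 with normexp, -0.10 from the mean over probes, -0.0040 with bright probes and -0.0017 with centering on the nuclear mean. For IP over input, *rsc1*Δ minus wild type was -0.22 with plain subtraction. *rco1*Δ minus wild type was -1.74 with plain subtraction, -3.99 in the deposited table and -0.88 over the 5 probes detected in the IP on all arrays, and *rsc1*Δ minus *rsc2*Δ was 0.026 in the deposited table. The cause of these changes was not tested.

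With one array left out at a time, the input difference from wild type ranged from -0.17 to 0.014 in *rsc1*Δ and from -0.35 to 0.11 in *rsc2*Δ, from -0.43 to -0.14 in *rco1*Δ (-0.14 without *rco1*Δ replicate 3), and *rsc1*Δ minus *rsc2*Δ from -0.19 to 0.27. The IP difference ranged from -0.18 to 0.59, from -0.19 to 0.81 and from -0.091 to 0.83 in *rsc1*Δ, *rsc2*Δ and *rco1*Δ, and from -0.53 to 0.31 for *rsc1*Δ minus *rsc2*Δ. That of the ratio ranged from -0.24 to 0.51 in *rsc1*Δ, from -0.035 to 1.14 in *rsc2*Δ, from 0.089 to 1.13 in *rco1*Δ (1.13 without *rco1*Δ replicate 1) and from -0.91 to 0.21 for *rsc1*Δ minus *rsc2*Δ. The lower ends of the IP and ratio differences from wild type came without wild type replicate 3.

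Among single probes, every alternative gave 0 mitochondrial calls outside *rco1*Δ against wild type, in input and ratio. In the input of *rco1*Δ the 1 higher and 6 lower calls became 0 and 0 at a threshold of 0.01, with normexp, with scan as a random block, with slide as a block and with the compared strains alone. Over all probes these settings left 0 higher and at most 3 lower calls, against 2094 and 183 in the main fit. The mitochondrial calls became 5 and 4 of 285 tested with plain subtraction, 5 and 10 among bright probes and 2 and 3 with the replicate block. They became 15 and 1 with centering on the mitochondrial median, and 0 to 9 and 0 to 12 with one array left out (9 and 12 without *rco1*Δ replicate 2). Over all probes the counts were 2499 and 636 with plain subtraction, 4094 and 285 among 28720 bright probes, and 1947 and 146 with the replicate block. They were 5983 and 63 with mitochondrial centering, and 6384 and 2416 without *rco1*Δ replicate 2. The 13 higher and 4 lower ratio calls became 3 and 0 at 0.01, 1 and 2 with plain subtraction, 6 and 192 in the deposited table, 24 and 0 with loess after normexp, 41 and 7 with slide as a block, 32 and 11 with the compared strains alone, and 0 and 0 with centering on the mitochondrial median. Over all probes the counts were 8603 and 6704 at 0.01, 3151 and 6749 with plain subtraction, and 5502 and 7924 in the deposited table. They were 4211 and 2876 with loess, 10461 and 10627 with slide as a block and 10904 and 11492 with the compared strains alone. Mitochondrial centering left 241 and 397. The tests covered 281 mitochondrial probes of 41732 with plain subtraction and 281 of 41735 in the deposited table. Normexp alone left 12 higher and 0 lower mitochondrial ratio calls, against 5494 and 5886 over all probes. With one array left out the mitochondrial ratio calls were 3 (without wild type replicate 3) to 43 (without *rco1*Δ replicate 1) and 0 (without wild type replicate 2) to 5. Over all probes these fits called 9335 to 10409 higher and 8619 to 11116 lower. Over all probes, the repeat number pairs only *rsc1*Δ and *rsc2*Δ, and their input difference of 0.05 had an exact p of 0.75 with the replicate block. The block changed no count of mitochondrial calls other than those of the *rco1*Δ input given above.

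The mean SD over mitochondrial probes, 2.86 in the input, was 2.20 with plain subtraction and 1.40 among bright probes. The median correlation between arrays was 0.919 and 0.887 with these choices. The lowest bin, at -4.68 relative to the mitochondrial median, was -2.91 with plain subtraction, -0.66 among bright probes and -0.94 with bins of 10 kb. The highest, at 0.95, was 2.00 with bins of 2 kb and 0.60 with bins of 10 kb. Dim spots limit both channels. The depth of a trough in the input was not measured, nor was a difference in the IP between spots not well above background.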
